A study of Mus musculus with 22 samples.

Results

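The 7 genes described here, Ooep, Padi6, Nlrp5, Nlrp14, Npm2, Zar1 and Gdf9, are oocyte and maternal-effect genes, and were chosen by symbol as 7 of the 21881 rows of a gene-count table. All 7 symbols were found in it. Counts were available for 8 single mouse blastocysts, collected at embryonic day 3.5, and for 14 libraries from 7 cell lines. The embryos were 2 wild-type (1 female, 1 male), 2 heterozygous for Nanog (1 female, 1 male) and 4 Nanog knockout, here called Nanog-null (females F1 and F2, males M1 and M2). Wild-type and heterozygous embryos together are called Nanog-bearing. The lines were all labelled Nanog wild-type and comprised 2 embryonic stem (ES) lines in serum-free culture (female F1, male M2), 3 trophoblast stem (TS) lines (females F1 and F2, male M3) and 2 extraembryonic endoderm (XEN) lines (males M1 and M2). ES, TS and XEN lines model the epiblast, the trophectoderm and the primitive endoderm of the blastocyst. The labels name neither the Nanog allele nor the strain, and do not say whether a line is 1 clone or whether embryos came from separate litters, so the p-values measure the spread between these samples.

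Maternal-effect genes are transcribed in the growing oocyte, and their products carry the embryo through its first divisions before its own genome is fully active. Most of their transcripts are degraded around the switch to embryonic transcription, while several of the proteins persist to the blastocyst in the cortex of its cells. Ooep and Nlrp5 (also called Mater) encode parts of the subcortical maternal complex, Padi6 is needed for the cytoplasmic lattices of the egg, Nlrp14 belongs to the reproductive NLR family, Npm2 encodes an egg nucleoplasmin that remodels chromatin, Zar1 encodes an RNA-binding protein that holds maternal mRNAs, and Gdf9 encodes a growth factor that the oocyte secretes to its follicle cells.

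Library totals ran from 14.8 to 32.2 M counts (mega-counts) in embryos and from 8.20 to 23.7 M in lines. Values are given as raw counts and as CPM, the count divided by the library total in M, with n for lines counting libraries, 2 technical replicates a line, so that their SD is not a spread between lines only. In a single embryo, 3 counts stood for 0.0931 to 0.203 CPM. Nanog, the targeted gene, was 122 ± 21.1 CPM in wild-type embryos (SD, n = 2), 70.6 ± 24.0 CPM in heterozygous embryos (n = 2) and 0.433 ± 0.153 CPM in null embryos (n = 4), in the order of the labels. All 7 epiblast, all 7 trophectoderm and all 7 primitive endoderm markers had counts in the line type they mark, and all but Foxa2, which was at 0, had counts in at least 1 embryo. Embryo RNA was amplified as cDNA before library preparation and line RNA went into another kit without that step, so embryos and lines were set side by side and never tested against each other. In whole embryos, fewer cells of a type and less RNA per cell cannot be told apart. Null embryos F1 and M2 stood apart: 570 and 809 genes that averaged at least 5 CPM in the other embryos had 3 counts or fewer there, against 133 in M1, 300 in F2 and 40 to 68 in the Nanog-bearing embryos.

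RefSeq promoter windows of 300 bases, from 250 before to 50 after the start, were held for 4 of the 7 genes on build GRCm38.p6. Those of Ooep, which had the most embryo counts of the 7, Padi6, which had counts in 5 of 8 embryos, and Zar1, which was near 0 in all libraries, are shown so that the sequence can be read beside the values. Capitals mark 2 motifs searched on both strands: TAATTG, which the oocyte homeodomain factor NOBOX binds, and the E-box CANNTG, the class of site bound by the oocyte factor FIGLA.
Ooep (chr9:78378539-78378838, minus strand): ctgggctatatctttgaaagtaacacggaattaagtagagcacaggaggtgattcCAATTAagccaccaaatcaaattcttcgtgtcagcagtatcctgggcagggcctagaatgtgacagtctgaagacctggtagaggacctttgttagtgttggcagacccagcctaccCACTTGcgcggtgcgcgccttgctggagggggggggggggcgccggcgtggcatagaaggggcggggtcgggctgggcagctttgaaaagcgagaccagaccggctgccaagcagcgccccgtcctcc
Padi6 (chr4:140742594-140742893, minus strand): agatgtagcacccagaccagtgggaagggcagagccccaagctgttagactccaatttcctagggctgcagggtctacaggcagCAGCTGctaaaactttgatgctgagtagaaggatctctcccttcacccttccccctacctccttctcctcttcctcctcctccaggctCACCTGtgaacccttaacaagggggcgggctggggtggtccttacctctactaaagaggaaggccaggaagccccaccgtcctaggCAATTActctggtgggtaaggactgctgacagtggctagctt
Zar1 (chr5:72581035-72581334, minus strand): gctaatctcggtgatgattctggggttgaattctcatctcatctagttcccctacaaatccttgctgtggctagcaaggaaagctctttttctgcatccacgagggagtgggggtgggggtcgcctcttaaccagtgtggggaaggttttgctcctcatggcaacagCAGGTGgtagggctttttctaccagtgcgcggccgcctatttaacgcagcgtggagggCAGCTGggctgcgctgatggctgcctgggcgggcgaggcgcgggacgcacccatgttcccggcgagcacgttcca
The Ooep window held 1 TAATTG match, beginning 195 bases before the start, and 1 E-box, and the Padi6 window held 1 TAATTG match after the start and 2 E-boxes. The Zar1 window held 2 E-boxes and no TAATTG. Nlrp5 had 2 windows, each with 2 E-boxes and no TAATTG. No TAATTG match overlapped an E-box in these windows. Among all 32817 windows of this length in the table, 8% held TAATTG, 72.3% held an E-box and 5.89% held both. GC content was 58.3% in the Ooep window, 56% in the Padi6 window and 58.7% in the Zar1 window, beside a median of 52.7% over all windows, and the Ooep and Zar1 windows held 15 and 17 CG dinucleotides where that of Padi6 held 2 and the median window held 7.

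Ooep, whose KH-domain protein is a core part of the subcortical maternal complex, was the only one of the 7 genes with counts in every embryo. Wild-type embryos held 1279 counts (female) and 1376 (male), heterozygous embryos 986 (female) and 775 (male), and null embryos 590 (F1), 354 (F2), 1296 (M1) and 310 (M2). As CPM these were 54.1 and 42.7 in wild-type, 42.4 and 52.5 in heterozygous, and 36.0, 16.2, 67.4 and 15.5 in null embryos. The 4 Nanog-bearing embryos lay close together, and 3 null embryos lay below all of them while M1 lay above all of them, so the groups overlapped. The means were 48.4 ± 8.08 CPM in wild-type (SD, n = 2), 47.4 ± 7.15 CPM in heterozygous (n = 2) and 33.8 ± 24.3 CPM in null embryos (n = 4). The fitted log2 fold change of null against Nanog-bearing was -0.47 (SE 0.51, adjusted p = 0.998), within the spread between embryos. It was -0.99 without M1, -0.21 without F2 and -0.35 without F1 and M2, and none of these passed the test.

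In the lines, Ooep followed the lineage. The ES libraries held 936 and 940 counts in line F1 and 407 and 899 in line M2. The 6 TS libraries held from 0 to 2 counts and 4 in all, and the 4 XEN libraries held 0, 2, 0 and 2. ES cells were far above both other lineages, with no overlap, and TS and XEN cells were at the edge of detection. Ooep was 88.7 ± 31.6 CPM in ES libraries (SD, n = 4), 0.0515 ± 0.0664 CPM in TS libraries (n = 6) and 0.0467 ± 0.0545 CPM in XEN libraries (n = 4). With the libraries of each line summed, the ES lines were at 107.7 CPM (F1) and 69.1 CPM (M2). The lower value of ES line M2 came from 1 of its passages, at 42.6 CPM, while the other was at 96.0 CPM. Over all counts of a lineage, the ratio of ES to TS was 1691 (95% interval 660 to 6209, counting error only), and that of ES to XEN was 1529 (597 to 5614).

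**Figure D1:**
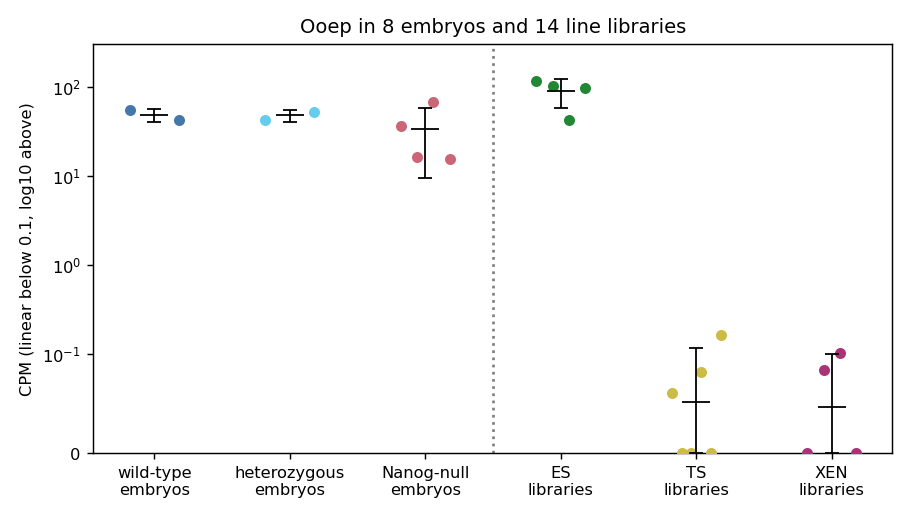
Ooep in CPM in each embryo and each line library (points), with group means and SD (black bars, cut at 0), on an axis that is linear below 0.1 and log10 above. Embryos lay between 15.5 and 67.4 CPM and ES libraries between 42.6 and 114 CPM, while no TS or XEN library passed 0.166 CPM.

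Nlrp5, a further part of the subcortical maternal complex, was counted almost only in 1 embryo. Null embryo F2 held 117 counts (5.35 CPM), the heterozygous male held 4, the wild-type male held 2, and the other 5 embryos held 0. F2 alone carried 94.1% of the CPM summed over the embryos. Each of the 4 ES libraries held 3 counts, the 6 TS libraries held from 0 to 6, with 16 in all, and the 4 XEN libraries held 0, 0, 0 and 1. ES and TS values overlapped, at 0.331 ± 0.0234 CPM (SD, n = 4) and 0.209 ± 0.159 CPM (n = 6). By line, ES F1 and M2 were at 0.344 and 0.317 CPM, and TS F1, F2 and M3 at 0.184, 0.355 and 0.0908 CPM. Over all counts, the ratio of ES to XEN was 23.1, with a counting interval from 3.41 to 986. It rests on 12 ES counts and 1 XEN count, with no library of either lineage above 3 counts, so its size is uncertain.

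Padi6, which encodes a protein arginine deiminase family member of the egg lattices, varied from embryo to embryo in every genotype. Wild-type embryos held 0 counts (female) and 83 (male), heterozygous embryos 0 (female) and 26 (male), and null embryos 5 (F1), 203 (F2), 82 (M1) and 0 (M2). The highest value, 9.27 CPM in F2, and the 3 embryos at 0 fell within and across genotypes, and the groups overlapped. Padi6 ranged from 0 to 2.58 CPM in the 4 Nanog-bearing embryos (median 0.880) and from 0 to 9.27 CPM in the 4 null embryos (median 2.28). The fitted log2 fold change was 3.97, with an SE of 4.07 and an adjusted p of 0.991. It ran from 1.48 (without the wild-type female) to 6.86 (without null embryo M1) with 1 embryo left out, was 1.78 with no sex term and 7.06 without F1 and M2, and passed in none of these fits. ES libraries held 2, 2, 1 and 5 counts, TS libraries 0 or 1 each with 3 in all, and XEN libraries none. With XEN set to a floor of 3 counts over the group, ES was 6.41-fold higher (95% lower limit from the counts alone 4.31).

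Nlrp14, a reproductive NLR gene, was at 0 in all 4 Nanog-bearing embryos and in null embryos F1 and M2. Null embryo M1 held 20 counts (1.04 CPM) and F2 held 261 (11.9 CPM). So 2 null embryos had the transcript and the other 2 were, like the Nanog-bearing embryos, without a count. The fitted log2 fold change was 8.63 (SE 3.30), a size that depends on the prior count because the Nanog-bearing embryos were at 0. Its unadjusted p was 0.0312 and its adjusted p was 0.931, so it did not pass. Without M1 or without F2 the gene no longer passed the filter on low counts and was not tested.

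In the lines, Nlrp14 was low and highest in ES cells. ES libraries held 8 and 7 counts in F1 and 3 and 13 in M2. The TS libraries held 1 and 3 in F1 and none in F2 or M3, and the 4 XEN libraries held none. The 4 ES libraries, at 0.859 ± 0.448 CPM (SD, n = 4), lay above the 6 TS libraries, at 0.0406 ± 0.0735 CPM (n = 6), without overlap in CPM. The lowest ES library (M2, 0.314 CPM) and the highest TS library (F1, 0.182 CPM) both held 3 counts, and differed in CPM only through their totals. By line, it was at 0.861 CPM in ES F1 and 0.846 CPM in ES M2, 0.122 CPM in TS F1, and 0 in the other 4 lines. Over all counts the ratio of ES to TS was 16.5 (95% interval 5.82 to 64.2, counting error only). With XEN set to the floor of 3 counts over the group, ES was 19.9-fold higher (95% lower limit from the counts alone 15.2). The nearest gene on 1 side, Olfr715, whose span overlaps that of Nlrp14 in the RefSeq table, was at 0 in every library.

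Npm2, the egg nucleoplasmin gene, had counts in 2 embryos only, 27 in the wild-type male (0.838 CPM) and 14 in the heterozygous one (0.948 CPM). The wild-type and heterozygous females and all 4 null embryos were at 0. The fitted log2 fold change of null against Nanog-bearing was -5.21 (SE of 2.95, adjusted p = 0.944), which again rests on a group at 0. Among the lines, ES libraries held 0 or 1 count, XEN libraries 1 or 2, and TS libraries 0 to 7 with 13 in all. These values overlapped between the lineages.

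Zar1, the maternal mRNA-binding gene, was the least detected. The wild-type male held 3 counts, the other 7 embryos held 0, and of the lines only TS line F2 held any, 1 in each of its libraries. All of these values were at or under the floor of 3 counts, so no fold was computed.

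Gdf9, the oocyte growth factor gene, was sparse in embryos. It had 40 counts in the wild-type male (1.24 CPM), 31 in null embryo M1 (1.61 CPM), 19 in M2 (0.950 CPM) and 1 in F2, and 0 in both heterozygous embryos, the wild-type female and null embryo F1. Nanog-bearing embryos averaged 0.310 ± 0.621 CPM (SD, n = 4) and null embryos 0.652 ± 0.775 CPM (n = 4), with overlap. The fitted log2 fold change was 3.30 (SE 2.02, adjusted p = 0.944), a size that depends on the prior count because both heterozygous embryos were at 0. It ran from 1.45 without the heterozygous male to 4.44 without the heterozygous female, and was 0.68 against the wild-type embryos alone.

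In the lines, Gdf9 had its highest values in XEN cells and its lowest in ES cells, where Ooep was highest. XEN libraries held 93 and 166 counts in M1 and 132 and 143 in M2. The 6 TS libraries held from 3 to 12 counts, with 45 in all, and the ES libraries held 1, 1, 0 and 1. No library of one lineage overlapped those of another in CPM. Between ES and TS this gap lay near the floor. The lowest TS library (M3) held 3 counts, or 0.249 CPM, where 3 counts in an ES library stood for 0.314 to 0.366 CPM. Gdf9 was 7.93 ± 2.25 CPM in XEN (SD, n = 4), 0.570 ± 0.230 CPM in TS (n = 6) and 0.0843 ± 0.0566 CPM in ES libraries (n = 4). Summed by line, the values were 6.88 and 8.54 CPM in XEN lines M1 and M2, 0.704, 0.666 and 0.318 CPM in TS lines F1, F2 and M3, and 0.115 and 0.0529 CPM in ES lines F1 and M2. Over all counts the ratio of XEN to TS was 13.1 (95% interval 9.67 to 18.2, counting error only), and that of XEN to ES was 92.6 (31.5 to 451). The RefSeq span of Uqcrq, which encodes a subunit of respiratory complex III, overlaps that of Gdf9, and whether the counting used strand is not given in the sources used here, so reads of the shared stretch cannot be told apart. Uqcrq was at 104 to 229 CPM in XEN and 126 to 185 CPM in TS libraries, and its log2 fold change of TS against XEN was -0.12 (adjusted p = 0.720), where that of Gdf9 was -4.04. ES libraries held 72.1 to 90.0 CPM of Uqcrq, and it was lower in ES, as Gdf9 was, by log2 fold changes of -0.98 against TS (adjusted p = 0.0175) and -1.10 against XEN (adjusted p = 0.0126). Its part in the counts of Gdf9 was not tested.

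**Figure D2:**
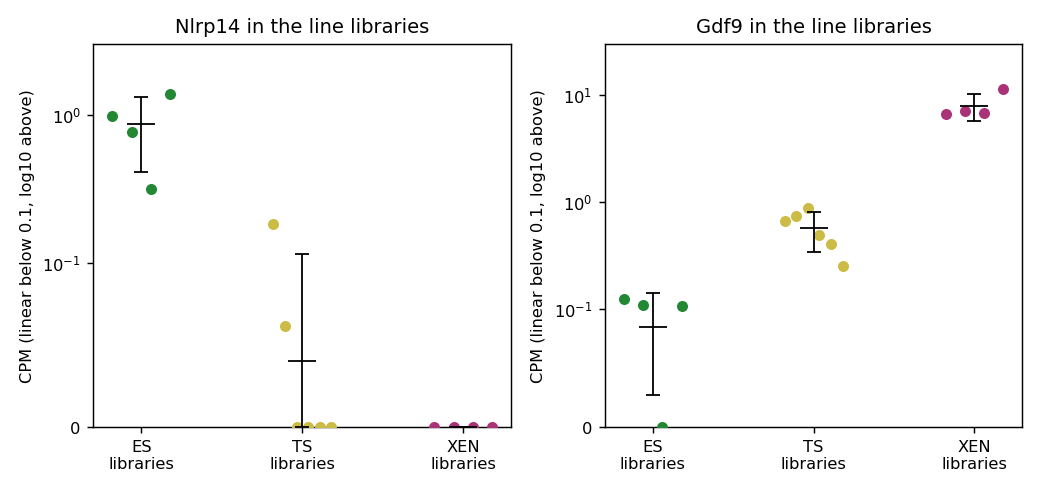
Nlrp14 (left) and Gdf9 (right) in CPM in each ES, TS and XEN library (points), with group means and SD (black bars, cut at 0), on axes that are linear below 0.1 and log10 above. Nlrp14 was highest in ES libraries and at 0 in XEN libraries, and Gdf9 rose from ES over TS to XEN libraries.

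The tests asked first whether these transcripts differed without Nanog. A filter on low counts kept 5 of the 7 genes in embryos (Ooep, Padi6, Nlrp14, Npm2 and Gdf9), and with edgeR's quasi-likelihood test 0 of these 5 passed an adjusted p of 0.05 against the Nanog-bearing embryos, where 0.0154% of all 12965 tested genes passed. At an unadjusted p under 0.05 there was 1 of the 5, Nlrp14, and 644 of all 12965 tested genes. Nlrp14 had counts only in null embryos M1 and F2, and Npm2 only in the wild-type and heterozygous males. Each passed the filter only through those embryos, so their fitted differences and p-values are a description. DESeq2 called 0 of the members and 165 of all genes. Against the wild-type embryos alone, 0 of 5 passed, with 0.0154% of all genes, 0 of the 5 had an unadjusted p under 0.05 (500 of all genes), and DESeq2 called 0 of the members and 173 of all genes. In that comparison the log2 fold changes were -0.49 for Ooep (SE 0.61), 3.69 for Padi6 (SE 4.69) and 0.68 for Gdf9 (SE 1.83). Both comparisons share the null and the wild-type embryos. The authors' deposited list of 78 Nanog-regulated genes named 0 of the 7.

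Between the lines, the filter kept 3 of the 7 genes, Ooep, Nlrp14 and Gdf9, and Nlrp5, Padi6, Npm2 and Zar1 were too low to be tested. A gene that passed this filter through the lineage where it is high had to differ, so the counts are a description, here and for the gene lists given further on, whose counts of higher and lower genes stand beside these shares over all genes. ES against TS, all 3 passed, where 41.3% of the 14687 tested genes did (20.0% higher and 21.3% lower in ES). Ooep was 10.53 log2 units higher in ES (SE 0.45, adjusted p = 2.39e-05), Nlrp14 was higher by 3.95 (SE 1.10, adjusted p = 0.0294), and Gdf9 was lower, at -2.75 (SE 0.69, adjusted p = 0.0172). The calls of Nlrp14 and Gdf9 depended on both ES lines: without ES line F1 their adjusted p-values were 0.142 and 0.0694, and without M2 they were 0.129 and 0.126. Nlrp14 also missed the threshold without TS line F2 (0.0613), without TS line M3 (0.0517) and with DESeq2 (0.136). All 4 TS counts of Nlrp14 came from line F1, and without that line its log2 fold change was 7.26, against a lineage at 0 (adjusted p = 0.0203).

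ES against XEN, all 3 again passed, beside 45.1% of all tested genes (23.4% higher and 21.8% lower in ES). The log2 fold changes were 10.15 for Ooep (SE 0.52, adjusted p = 3.06e-05), 7.34 for Nlrp14 (SE 1.76, adjusted p = 0.0158) and -6.79 for Gdf9 (SE 0.73, adjusted p = 0.000480), that of Nlrp14 against a lineage at 0. Leaving out either ES line or either XEN line made Nlrp14 miss the threshold, with adjusted p-values from 0.0593 to 0.0675, while Ooep and Gdf9 passed in each of these fits. With no filter on low counts Nlrp5 (adjusted p = 0.0493) and Padi6 (adjusted p = 0.0443) passed too, 5 of the 7 genes, beside 35.5% of 18547 genes. These 2 calls lay just under the threshold and rest on 12 and 10 ES counts, against 1 and 0 in XEN. With DESeq2 neither passed, at adjusted p-values of 0.0933 (Nlrp5) and 0.160 (Padi6). TS against XEN, 1 of the 3 passed, beside 36.7% of all tested genes (20.3% higher and 16.4% lower in TS). This was Gdf9, at -4.04 (SE 0.50, adjusted p = 0.00106). Ooep was at -0.38 (SE 0.69, adjusted p = 0.764), and Nlrp14 was at 3.39 (SE 2.04, adjusted p = 0.239), again against a lineage at 0. The 3 comparisons share their lines, and sex was not a term in them although both XEN lines were male.

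**Figure D3:**
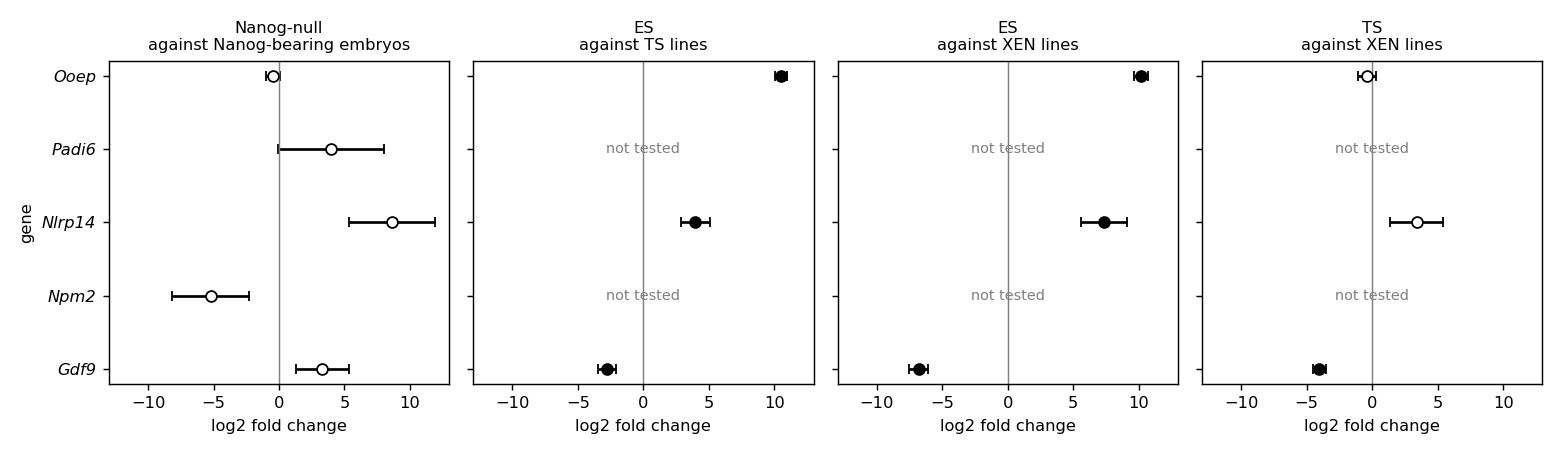
Fitted log2 fold changes of the tested genes in 4 comparisons, with bars of 1 SE and filled points where the adjusted p was under 0.05. None of the 5 genes is filled in the embryo panel, Ooep lies near 10 in both ES panels, and Gdf9 lies below 0 in all 3 line panels. The embryo values of Nlrp14 and Npm2 and the values of Nlrp14 in both XEN panels rest on a group at 0. The embryo value of Gdf9 rests in part on heterozygous embryos at 0.

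Across embryos, the 6 genes other than Ooep were each at 0 in 3 to 7 of the 8 embryos. The wild-type and heterozygous females held no count of any of the 6, whereas the wild-type male held counts of 5 of them and the heterozygous male of 3. Null embryos F1, F2, M1 and M2 held 1, 4, 3 and 1 of the 6. The summed level of the 6 ran from 0 CPM in both Nanog-bearing females to 26.6 CPM in null embryo F2, with 2.98 CPM in the heterozygous male, 4.81 CPM in the wild-type male, 0.305 CPM in F1, 6.91 CPM in M1 and 0.950 CPM in M2. F2 was the top embryo for Padi6, Nlrp5 and Nlrp14, with 51.0%, 94.1% and 92.0% of the CPM summed over embryos, but held no Npm2 and 1 count of Gdf9. Of the 5312 genes with 3 to 399 embryo counts, 66.5% had at least 50% of their CPM in 1 embryo, with a median of 60.2% in the top embryo and 5 embryos at 0. Of the 3334 genes with 30 to 399 counts, a window that holds the 6 without Zar1 (41 to 399 counts), the share was 57.0%. Their median was 53.7% in the top embryo and 3 embryos at 0. The shares of Padi6, Npm2 (53.1%) and Gdf9 (41.9%) lay near or below these medians, and those of Nlrp5 and Nlrp14 lay above them. The 3 counts of Zar1 all came from 1 embryo. Ooep had 20.6% in its top embryo, beside a median of 20.2% over the 2188 genes within 1.5 times its counts.

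**Figure D4:**
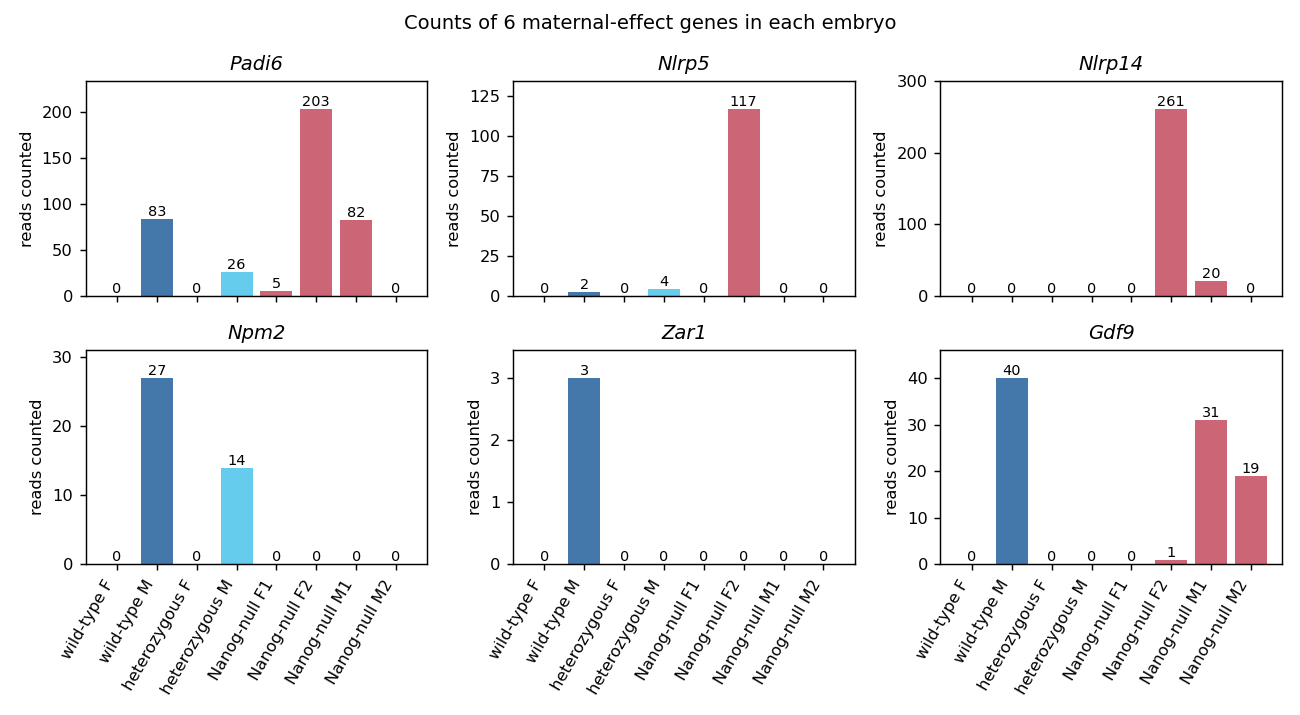
Raw counts of the 6 sparse genes in each of the 8 embryos (bars, numbers above), with wild-type in dark blue, heterozygous in light blue and Nanog-null in red, each panel on its own axis. Null embryo F2 holds most counts of Padi6, Nlrp5 and Nlrp14, and both Nanog-bearing females are at 0 in all 6 panels.

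Cumulus and granulosa cells surround the oocyte, and their markers were read beside these genes. Of 11 such markers, 7 were at 0 in all embryos (Foxl2, Cyp19a1, Amh, Inha, Has2, Ptx3 and Hsd3b1), and their summed level ran from 0.344 to 17.4 CPM in Nanog-bearing and from 0.0610 to 7.23 CPM in null embryos. Most of these sums came from Star, at 0.0610 to 5.35 CPM, and Cyp11a1, which had 370 counts in the wild-type female and 69 in null embryo M1. The wild-type female, highest in this sum, held none of the 6 sparse genes. The 4 oviduct markers summed to at most 1.20 CPM in any embryo, and the 6 markers of spermatogenic cells to at most 5.60 CPM, with Prm1, Tnp1 and Acrv1 at 0. In the line libraries the 11 cumulus and granulosa markers summed to 10.5 to 13.6 CPM (ES), 22.7 to 163 CPM (TS) and 3.00 to 7.14 CPM (XEN). There the oviduct markers reached 10.4 CPM (ES), so these lists are not specific to the cells they name. The part of cumulus, granulosa, oviduct and spermatogenic cells in the values was not tested.

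The partners of Ooep, Nlrp5 and Padi6 in the subcortical maternal complex and the lattices were measured with them. Of the 8 listed genes, which include these 3, 5 were tested in embryos and 0 passed in either direction, with a median log2 fold change of 0.13, beside -0.05 over all genes. Khdc3, a KH-domain part of the complex, was at 61.0 to 233 CPM in embryos. Tle6, which encodes a co-repressor family protein of the complex, was at 0.777 to 34.5 CPM, and Nlrp4f at 0 to 11.9 CPM. ES against TS, 3 of the 5 tested were higher and 1 lower (20.0% and 21.3% over all genes), with a median of 3.36 beside -0.02 over all genes. Khdc3 was higher in ES by 5.34 (SE 0.62, adjusted p = 0.000933) and Nlrp4f by 3.36 (SE 0.63, adjusted p = 0.00798), as Ooep was, while Tle6 was lower, at -2.64 (SE 0.59, adjusted p = 0.0113). ES against XEN, Ooep, Khdc3 and Nlrp4f were again higher and none was lower, and TS against XEN only Nlrp4f passed, higher in TS. Khdc3 and Ooep thus had counts in all embryos and were higher in ES than in TS and XEN lines, but the ES level of Khdc3, 3.87 to 15.5 CPM, lay below its level in every embryo, whereas that of Ooep, 42.6 to 114 CPM, overlapped it. These are values from 2 kinds of library and were not tested against each other.

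**Figure D5:**
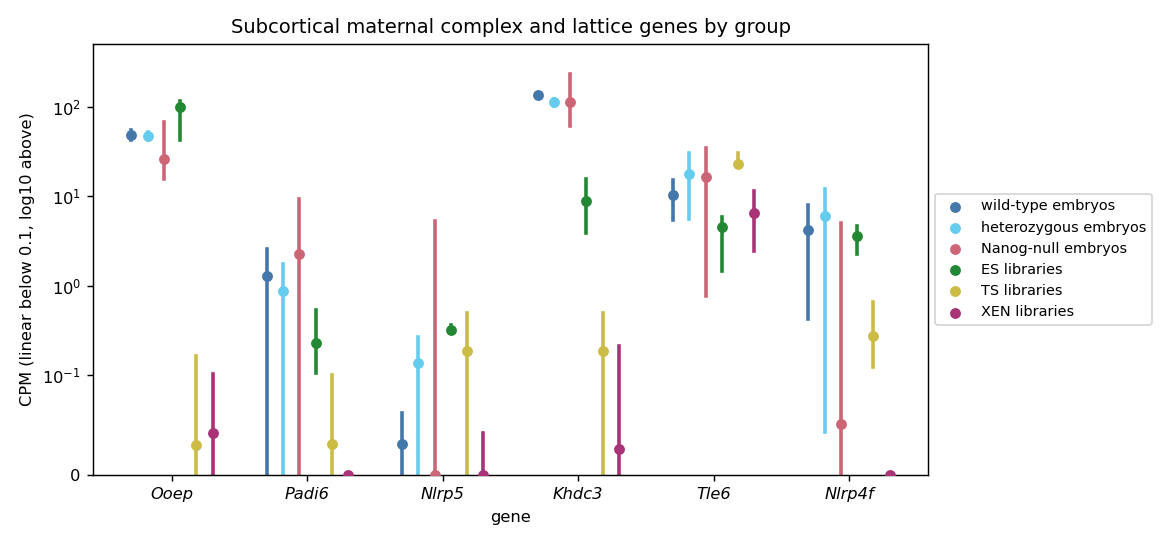
Lowest to highest (lines) and median (points) CPM of 6 subcortical maternal complex and lattice genes in each group of embryos or line libraries, on an axis that is linear below 0.1 and log10 above. Ooep and Khdc3 are high in all embryo groups and higher in ES than in TS or XEN libraries, with Khdc3 lower in ES libraries than in any embryo. Padi6 and Nlrp5 reach 0 in all 3 embryo groups, and Tle6 has counts in all 6 groups.

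Other families of the same cells were counted by lists. In the reproductive NLR family, to which Nlrp5 and Nlrp14 belong, 11 of 13 listed genes were in the table, 5 were tested in embryos and 0 passed. Nlrp4c, at 25.6 to 97.2 CPM, and Nlrp4e, at 3.33 to 13.8 CPM, had counts in every embryo, unlike Nlrp14, and neither passed 0.304 CPM in any line library. These NLR genes are near copies of each other in part, so the split of reads between them is uncertain. ES against TS, 2 of 2 tested were higher (20.0% of all genes), Nlrp14 and Nlrp4f, and the same 2 were higher ES against XEN (23.4% of all genes). Both passed the filter through their ES counts, 31 for Nlrp14 and 129 for Nlrp4f, against 4 and 24 in TS and 0 in XEN libraries.

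Of the oocyte-secreted and zona pellucida genes, the family of Gdf9, 3 of 7 were tested in embryos and 0 passed. Bmp15, the paralog and partner of Gdf9, had at most 2.27 CPM in embryos and 0.108 CPM in lines. In the lines, 2 were tested: Gdf9 was lower in ES than in TS, and Zp3, which encodes a zona pellucida glycoprotein, was higher (log2 fold change 6.16, SE 0.92, adjusted p = 0.00240). So Gdf9 was high in XEN lines without Bmp15 or Zp3, which were at most 0 and 0.0845 CPM there. Of 6 oocyte transcription factor genes, 2 were tested in embryos and 0 passed. Figla was at 0 to 1.12 CPM in embryos and at most 0.105 CPM in lines, whereas Sohlh2 was higher in ES than TS by 8.83 (SE 0.68, adjusted p = 0.000220).

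Of the 12 genes of maternal mRNA control, which include Zar1, 8 were tested in embryos and 0 passed, with a median of -0.50 beside -0.05 over all genes, and ES against TS 3 of 7 were higher and 0 lower, beside 20.0% and 21.3% of all genes. Patl2, which encodes an oocyte RNA-binding protein, was at 36.2 to 53.9 CPM in ES and at most 4.45 CPM in TS libraries (log2 fold change 4.16, SE 0.52, adjusted p = 0.00118). Cpeb1, which encodes a regulator of polyadenylation in the oocyte, was higher by 2.55 (SE 0.60, adjusted p = 0.0170). Of the 10 maternal chromatin genes, which include Npm2, 9 were tested in embryos and 0 passed, with 8 of 9 log2 fold changes below 0 (6845 of 12965 over all genes) and a median of -0.50. Dppa3 (also called Stella), a maternal protector of DNA methylation, was at 2166 to 9614 CPM in embryos, where Npm2 was mostly at 0. Zfp57, which encodes a keeper of imprints, was at 17.2 to 35.6 CPM in null and 84.0 to 114 CPM in Nanog-bearing embryos. It did not pass (log2 fold change -1.65, SE 0.35, adjusted p = 0.931), and the share of all genes with ranges apart in this way was not counted. ES against TS, 6 of 8 chromatin genes were higher and 0 lower, beside 20.0% and 21.3% of all genes. Of the 14 genes of oocyte-abundant families, 6 were tested in embryos and 0 passed, beside 0.0154% of all genes. Here 5 of 6 log2 fold changes were above 0 (6120 of 12965 over all genes), with a median of 0.56, the other way from the chromatin genes. In both ES comparisons 2 of 2 were higher, beside 20.0% (TS) and 23.4% (XEN) of all genes. Both passed the filter through ES, with 42 counts of Obox6 and 5226 of Tcl1 there and at most 7 of either in TS or XEN. These were Obox6, at 8.04 to 65.5 CPM in embryos, and Tcl1, at 134 to 158 CPM in ES and at most 0.247 CPM in TS libraries (log2 fold change 10.47, SE 0.40, adjusted p = 1.70e-05).

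The genes beside the members in the genome were read for the same libraries. Dppa5a, which encodes a KH-domain protein of pluripotent cells and lies next to Ooep in the RefSeq gene table, was at 1307 to 3618 CPM in embryos, 1456 to 2625 CPM in ES, at most 4.97 CPM in TS and at most 0.634 CPM in XEN libraries. It was higher in ES than TS by 9.21 (adjusted p = 2.86e-06), as Ooep was. On the other side, Ddx43, a helicase gene of the germ line, was at 5.23 to 10.1 CPM in ES, at most 1.24 CPM in TS and 0 in XEN libraries. Shroom1, beside Gdf9, was at 1.69 to 5.48 CPM in XEN and 5.28 to 54.0 CPM in TS libraries, which is not the order of Gdf9. Padi4, beside Padi6, was at 0 in XEN libraries, as Padi6 was, but reached 22.8 CPM in TS libraries.

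The genes most like each member were taken by Pearson's r of log2(CPM + 1), as a description over few samples that share a library kit and differ in depth. Over the 8 embryos, Ooep was most like Iffo2 (r = 0.995), Pja2 (0.992) and Plac1 (0.987), and 1.26% of the other genes had r of 0.9 or more with it. Padi6 was most like Trove2 (0.976), Hs3st1 (0.966) and Limch1 (0.952), and Gdf9 was most like Tfb1m (0.987), Asna1 (0.969) and Caps2 (0.968). The likeness of Npm2 to 1500017E21Rik and Syt8 rests on 2 or 3 embryos with counts. Over the 7 lines, 11.0% of genes had r of 0.9 or more with Ooep, led by Accsl, 1700013H16Rik and Gm606, and 11.7% with Nlrp14, led by Zfp534 (0.998), Slc4a5 and Lrrc34. For Gdf9 the share was 4.23%, led by Fam65b (0.997), Adora1 (0.996) and Tspan3 (0.994).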

How the data were processed

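RNA was sequenced from 8 embryos and from 7 lines with 2 technical replicate libraries each, which per the labels come from 2 passages of a line. The authors deposited raw counts per gene symbol, whole numbers that are not normalized. Per the submitters' processing notes, TopHat 1.3.1, edgeR (no version) and the mm9 build were used. For the program that counted, its annotation and strand use, the sources used here give nothing. The other deposited file is the authors' list of Nanog-regulated genes, whose direction column (unit other) holds words per the file headers. Of its 22 value columns, which have no unit given, none was used.

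Embryos were fitted in R 4.3.3 by the quasi-likelihood test of edgeR 4.0.16 (TMM scaling, filterByExpr, genotype and sex as terms), and null was set against the mean of the wild-type and heterozygous terms at equal weight. The passages of a line were summed, and the 7 lines were fitted by lineage with no sex term. Both XEN lines were male, while ES and TS had lines of both sexes, so lineage and sex are partly confounded in the XEN comparisons. P-values were adjusted by Benjamini-Hochberg over all tested genes (12965 in embryos, 14687 in lines), with a threshold of 0.05. SEs were taken as the size of the log2 fold change over the square root of F. Ratios of pooled counts have exact 95% intervals that cover counting error only, and a fold against a group at 0 takes a floor of 3 counts over the group. The fits were also run on simulated data, with the same spread for every gene and without genes of low mean CPM. Those runs do not cover the sparsest genes described here.

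Alternatives were another scaling (RLE), no filter, DESeq2 1.42.0, no sex term, thinning to the lowest embryo total, each embryo or line left out, the 14 libraries with and without a replicate block, and, chosen after seeing the data, null embryos F1 and M2 left out. Named were all 7 members; of each other list up to 3 genes by embryo level and up to 3 called genes by p, of which a selection is printed; the counted neighbours; and the 3 genes most like each tested member, of which those of Nlrp14 in embryos are not reported here. Members and lists were chosen with earlier results of these data known. The row 2410004A20Rik was read as Khdc3 through RefSeq synonyms. Promoter windows are from RefSeq on GRCm38.p6, which is not the build of the counts, and are used only for sequence.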

Additional observations from a re-analysis of the deposited data

Results flagged for a closer look

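A rule that marks groups of samples whose extreme value lies far from the others was applied to 22 gene and group pairs. It is set to mark about 1 in 20 groups of normally spread values. For low counts with many values tied at 0 that rate does not hold, so the marks only point to values to look at. In null embryos, Nlrp5 was 5.35 CPM in F2 and 0 in the other 3, and Nlrp14 was 11.9 CPM in F2 with the next embryo at 1.04 CPM. Gdf9 was 11.3 CPM in the second library of XEN line M2, with the next XEN library at 7.01 CPM, and the other library of that line was at 6.76 CPM. The remaining cases rest on 7 counts or fewer: Nlrp14 at 0.182 CPM in TS F1, Npm2 at 0.577 CPM in TS F2, Nlrp5 at 0.0422 CPM in XEN M1, and 1 ES library at 0 for each of Npm2 (F1) and Gdf9 (M2), where the other 3 ES libraries held 1 count each.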

How the results depend on the processing

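The number of these genes called in embryos was 0 in every alternative run. Over all genes, the 2 calls in each embryo comparison became 50 (null against Nanog-bearing) and 37 (null against wild type) with no filter, 165 and 173 with DESeq2, 1 and 1 without null embryos F1 and M2, and 1 to 2 and 1 to 3 with 1 embryo left out. The log2 fold change of Gdf9 against wild type was -0.12 without the wild-type female and ran from there to 2.76 with 1 embryo left out. With 1 line left out, 1 to 3 of the genes were called ES against TS and 2 to 3 ES against XEN, and all genes called ran from 2429 to 6233 and from 3997 to 7646, each lowest without an ES line. With no filter, 5 were called ES against XEN, and with DESeq2 3 were. Ooep kept its call in both ES comparisons (log2 fold changes 10.14 to 11.04 and 9.77 to 10.45), as did Gdf9 in both XEN comparisons (-7.42 to -6.33 against ES, -4.22 to -3.80 for TS). Where fewer lines were left, fewer samples were fitted; for DESeq2 and the filter the cause was not tested. With a replicate block over the 14 libraries, 2 of 2 tested genes were called ES against TS, beside 8025 of all genes (8171 with no block). Same-numbered libraries of other lineages had a median correlation of -0.008 (-0.135 to 0.165), and other-numbered ones 0.003 (-0.128 to 0.136). These correlations were taken around lineage means and so include differences between lines. A batch shared by replicate number was thus not tested. Nlrp14 had no value TS against XEN without TS line F1, when both lineages were at 0. At this depth, Nlrp5, Padi6, Npm2 and Zar1 were too low to be tested in the lines.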
